A study of Drosophila melanogaster with 4 samples.

Results

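Uracil-treated and untreated midguts of Drosophila melanogaster were compared at the early time of the study, 2 h, through the poly(A) RNA of whole midguts. The comparison uses 2 of the 4 libraries, untreated 2 h and uracil 2 h, with 1 library per group. The other 2, untreated 16 h and uracil 16 h, are used only to show how the same genes stood later. The labels give no genotype, strain, sex, age, dose or number of guts per library, and untreated flies are described only as controls. Genes with a mean of at least 10 normalized counts over the 2 libraries at 2 h were kept, which left 6448 of 13585 gene IDs. A normalized count is the authors' read count divided by a factor for each library. The factor is not the total of reads alone, since the normalized columns have unequal sums. These are 1077970 for untreated 2 h, 1062205 for uracil 2 h, 968956 for untreated 16 h and 980562 for uracil 16 h. A gene was called higher or lower when log2 of (uracil + 1) over (untreated + 1) was at least 1 or at most -1, a 2-fold difference. No group has a replicate, so the comparison at 2 h has no test, and a fold change says only that these libraries differed. A gene near the minimum could pass it through its higher library alone, so a count or median over the members of a list that passed describes those members and not the whole list. Lists and their members were chosen with earlier results of these data known. A list's share beside that of all genes kept is therefore a description and gives the list no separate support.

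Uracil is a pyrimidine base of RNA. When released by gut bacteria it is known to stimulate the intestinal epithelium of the fly, which answers through the NADPH oxidase Duox and the reactive oxygen this enzyme makes. The midgut epithelium holds absorptive enterocytes that secrete proteases, glycosidases and lipases into the lumen, peptide-secreting enteroendocrine cells, and stem cells that renew both. It is wrapped in visceral muscle, and the Malpighian tubules, which make urine, join the gut at its posterior end.

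Each library held between 8500378 and 16588143 reads in genes, and a single read was worth between 0.0584 and 0.127 normalized counts. The enterocyte transcription factors GATAe (339 untreated and 298 with uracil at 2 h) and nub (291 and 297) and the enterocyte myosin gene Myo31DF (839 and 849) were present at similar levels in both libraries, as the midgut label would have it. A fold is given with its exact (Clopper-Pearson) 95% interval from the reads, which covers counting error only. Where 4 normalized counts are given together, their order is untreated 2 h, uracil 2 h, untreated 16 h and uracil 16 h.

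At 2 h, 39 of the 6448 genes were at least 2-fold higher with uracil, 0.605% of those kept, and 57 were 2-fold or more lower, or 0.884%; both sides together made 96 genes, or 1.49%. The genes on the higher side included 3 that were nearly silent without uracil, a set of oocyte and mitotic genes, the small heat shock genes Hsp26 and Hsp27, and the sterol uptake genes Npc1b and Npc2e. The lower side included digestive enzymes, solute transporters and the urate oxidase gene Uro. The median log2 ratio over all genes kept was 0.00, with quartiles at -0.13 and 0.13, so most genes lay close to equality. Of the genes 2-fold apart, 9 stood 4-fold or more above untreated on the log2 scale used, and 12 stood as far below. The counting interval of the fold lay wholly beyond 2-fold for 30 genes on the higher side and 33 on the lower side. The values nearest to the threshold were those of CG5597 (28.2 untreated and 57.7 with uracil) and CG17752 (26.5 and 12.6) just inside it. ImpL2 (22.6 and 46.1) and BomS2 (14.5 and 6.73) lay just outside it.

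**Figure D1:**
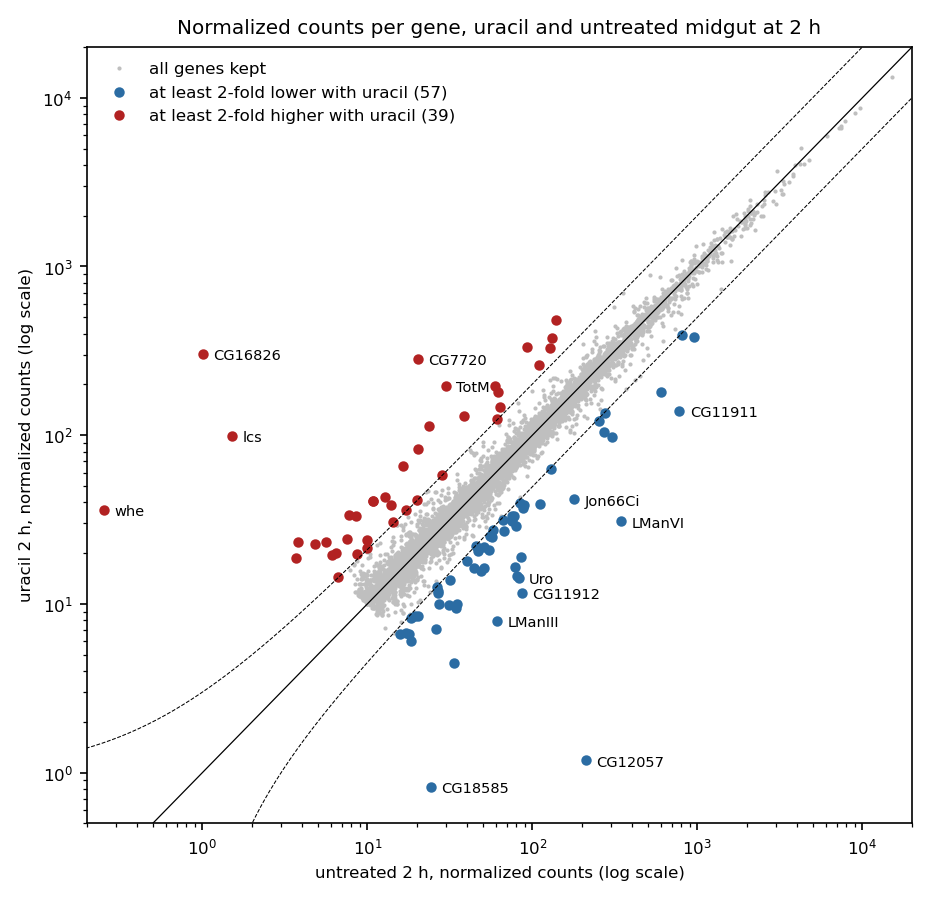
Normalized counts of the 6448 genes kept, untreated 2 h on the horizontal and uracil 2 h on the vertical axis, both on a log scale, with 1 library per axis. The solid line marks equality and the dashed lines the 2-fold threshold after adding 1; the 39 genes above and 57 below are coloured, and CG16826, lcs, whe, CG12057 and CG18585 lie farthest from the line.

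CG16826, lcs and whe had the highest ratios. CG16826 stood at 1.01, 303, 3.1 and 639 normalized counts in the 4 libraries, a 298-fold difference at 2 h (151 to 692). For lcs the values were 1.52, 98.9, 6.37 and 174, or 65-fold at 2 h (37 to 126). The third, whe, stood at 0.254, 35.9, 0.234 and 103, or 142-fold (38.9 to 1175), with only 2 reads in the untreated library. In each of these genes both uracil libraries lay above both untreated libraries without overlap. No role is assigned here to any of the 3. In the Ensembl annotation of the BDGP6.54 assembly, matched by gene ID, lcs and whe lie next to each other on the X chromosome between positions 21396727 and 21402772, and CG16826 lies on chromosome 2L.

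Other genes of the higher side did not follow the uracil libraries so closely. CG7720, a member of the SLC5 family of sodium-coupled transporters, stood at 20.2, 284, 39.8 and 96.3, a 14.1-fold difference at 2 h (12 to 16.6). TotM, one of the Turandot genes that code for stress-induced secreted proteins, stood at 29.8, 196, 45.1 and 14.1, 6.57-fold higher at 2 h (5.73 to 7.56). Its uracil 2 h library was the highest of the 4 and its uracil 16 h library the lowest. TotM was the only gene of the Turandot and JAK-STAT list past the threshold among 7 kept (median log2 ratio 0.10). The signalling members Stat92E, the pathway's transcription factor, at 669 and 642, and Socs36E, its feedback inhibitor, at 83.1 and 89.1, were close to equal at 2 h.

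**Figure D2:**
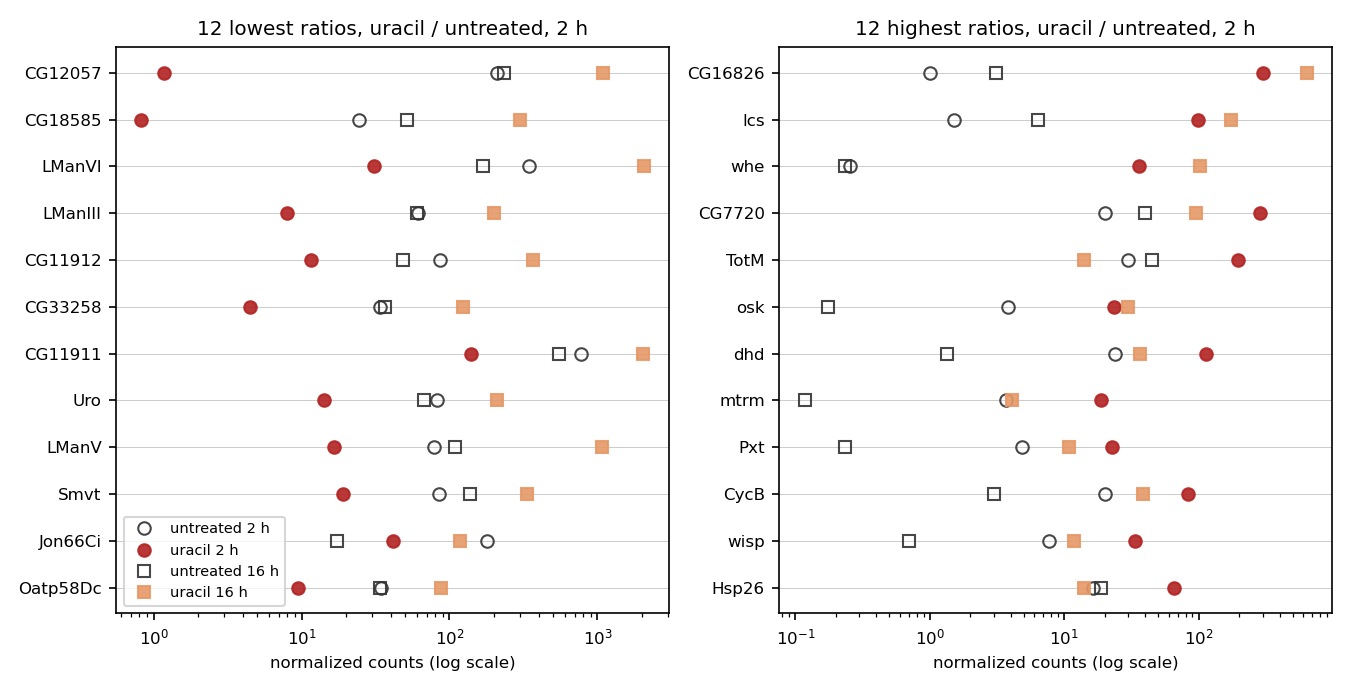
Normalized counts (log scale) of the 12 genes with the lowest and the 12 with the highest ratio at 2 h that have a symbol and reads of their own, 1 point per library. By construction uracil 2 h lies below untreated 2 h in the left panel and above it in the right panel; uracil 16 h is the highest point of every gene on the left except Jon66Ci, and on the right its place differs from gene to gene.

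Digestive enzymes lay mainly on the lower side at 2 h. Over 8 lists of proteases, glycosidases and lipases, 12 of 88 kept genes were at least 2-fold lower with uracil (13.6%, beside 0.884% of all genes kept) and 1 was higher. The ratio was below 0 in 74 of the 88, with a median of -0.20, so for most of them the difference was small. In RNA of a whole organ, fewer cells of a type and less RNA per cell cannot be told apart.

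Lysosomal-type alpha-mannosidases, which trim mannose from glycans, had 3 of 5 kept members on the lower side, with a median of -2.18 that was -0.32 with a minimum mean of 50. LManVI was at 345, 30.8, 168 and 2054 normalized counts, 11.2-fold lower with uracil at 2 h (9.86 to 12.8). LManIII was at 61.1, 7.92, 60.6 and 199, 7.72-fold lower (5.97 to 10.1), and LManV at 78.4, 16.5, 109 and 1072, 4.74-fold lower (3.94 to 5.73). In all 3 the uracil 2 h library was the lowest and the uracil 16 h library the highest. The other members kept, LManII (989 and 790 at 2 h) and LManI (243 and 229), stayed within 2-fold. LManIII, LManV and LManVI are neighbours on chromosome 2L, between 8765273 and 8781252.

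Serine proteases, which digest dietary protein, followed the same side with a wide spread in size. All 15 Jonah proteases kept were below 0 at 2 h, with a median of -0.24, and 3 of them were at least 2-fold lower. Jon66Ci stood at 180, 41.7, 17.5 and 118, 4.32-fold lower at 2 h (3.84 to 4.87). Jon65Aii was at 67.3, 26.9, 30 and 118, and Jon65Ai at 803, 392, 346 and 1065. The untreated libraries of Jon66Ci differed more between the times (180 and 17.5) than the 2 h libraries did between the treatments. Jon65Aiv (9612 and 8674 at 2 h) and Jon65Aiii (7177 and 6621) differed little. Of the 9 trypsins kept, iotaTry was past the threshold (19.4, 8.51, 22.7 and 146). The trypsin gene zetaTry stood at 18.5 untreated and 0.118 with uracil at 2 h, from 146 reads and 1 read, and its mean was just under the minimum. At 16 h it had 403 reads untreated and 1403 with uracil. Of the others, alphaTry (7390 and 6662) and thetaTry (1133 and 1175) were close to equal. Among 16 other gut serine proteases 3 were lower and 0 higher. These were CG11912 (86.6, 11.6, 48.2 and 366), 7.48-fold lower (6.05 to 9.34), CG11911 (779, 139, 552 and 2037), 5.6-fold lower (5.26 to 5.97), and CG17571 (605, 180, 194 and 1017), 3.36-fold lower (3.17 to 3.56). The protease gene CG5246 went the other way without reaching the threshold, at 354 and 697.

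Other lumenal enzymes included genes far apart between the libraries. The zinc carboxypeptidase gene CG18585, whose family removes the last amino acid of peptides, stood at 24.3, 0.827, 51.9 and 301, 29.4-fold lower at 2 h (14 to 74.2), from 7 reads with uracil. The other 8 carboxypeptidases kept stayed within 2-fold, among them CG12374 at 15204 and 13227. Under the minimum mean, CG7025 of the same family stood at 8.37, 0, 27.1 and 226, with 66 reads in untreated 2 h and 0 in uracil 2 h. CG6296 was the only lipase of 17 past the threshold, at 302, 98.1, 185 and 93.3, and its uracil 16 h value was as low as its uracil 2 h value. Among 15 maltases, amylases and other glycosidases none was lower by 2-fold, and Gba1a, a glucocerebrosidase gene, was higher at 61.5, 180, 85.9 and 155. Sugar-cleaving Mal-A1 (3251 and 2697) and Amy-p (1984 and 1856) differed little at 2 h.

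The gene with the lowest ratio of all, CG12057, is on no list. It stood at 211, 1.18, 232 and 1088 normalized counts, 178-fold lower with uracil at 2 h (96.8 to 373), from 10 reads in the uracil 2 h library. Untreated libraries at both times were alike, and the uracil libraries lay on opposite sides of them. CG33258 had the same order of libraries at 33.7, 4.49, 36.7 and 124, 7.51-fold lower (5.33 to 10.9).

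**Figure D3:**
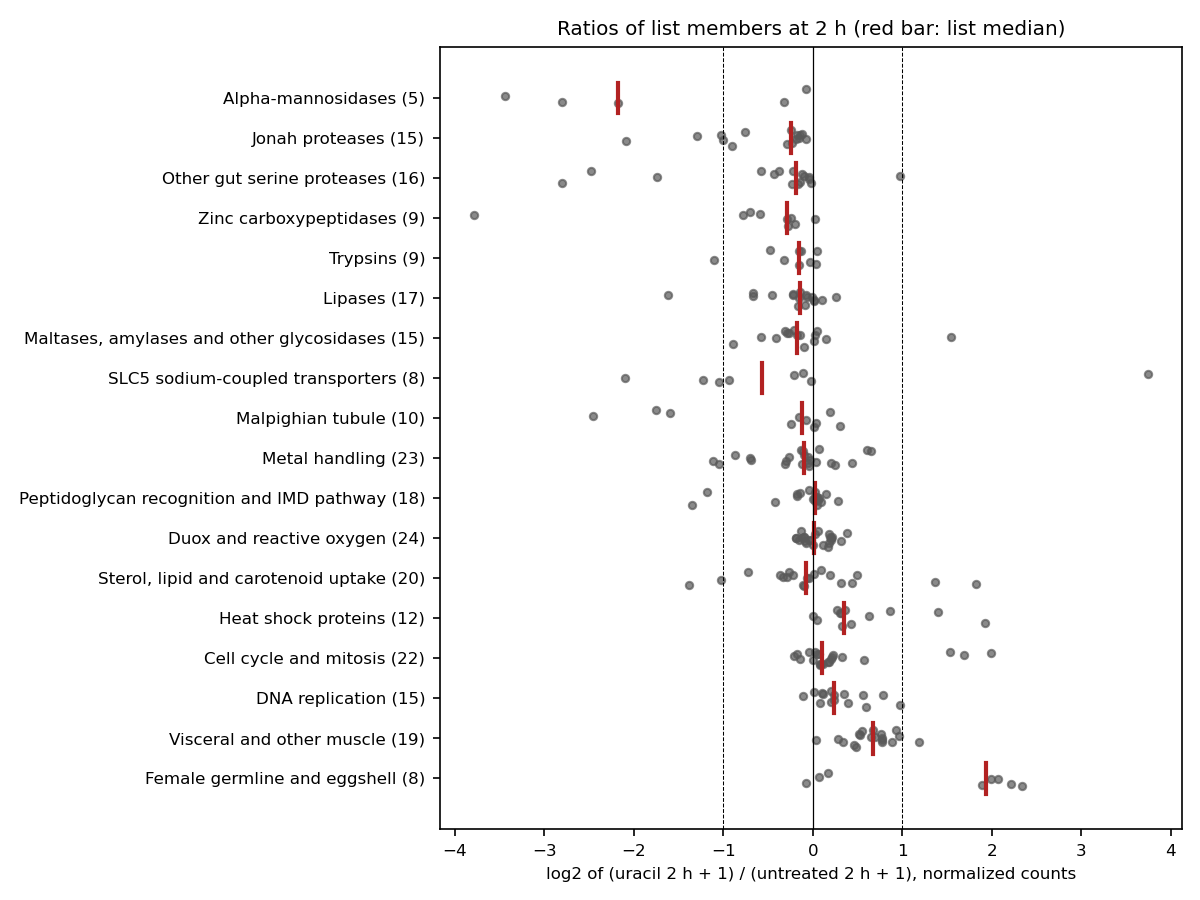
Log2 ratio of uracil to untreated at 2 h, after adding 1 normalized count, for the kept members of 18 lists; each point is a gene, the red bar the list's median, the number in brackets the members kept, and dashed lines the 2-fold threshold. Alpha-mannosidases have a median of -2.18 (-0.32 with a minimum mean of 50) and female germline genes one of 1.94 (0.41 with no minimum), while the Duox and reactive oxygen genes all lie within 2-fold.

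Solute transporters were the other large group on the lower side. Over 4 lists, 8 of 44 kept genes were at least 2-fold lower (18.2%, beside 0.884% of all genes kept). On the higher side were 2 (4.55%, beside 0.605%). The SLC5 family had 3 lower and 1 higher of 8, with a median of -0.57 that was -0.11 with a minimum mean of 50. Smvt, the sodium-dependent multivitamin transporter gene, stood at 85.1, 19, 138 and 334, 4.47-fold lower at 2 h (3.76 to 5.35). Its neighbour on chromosome 3R, CG2187, was at 18.3, 8.27, 29.8 and 93.7, and kumpel at 88, 37, 118 and 346, so that all 3 had uracil 2 h lowest and uracil 16 h highest. CG7720, described above, was the member on the higher side. The organic solute carriers Oatp58Dc (34.2, 9.45, 34 and 87.2) and CG7084 (77.5, 33.3, 98.1 and 226) were lower at 2 h. So were the sugar transporter-like genes CG7882 (40.1, 18, 54.4 and 165) and CG15406 (66.3, 31.5, 80.8 and 176). Of the phosphate carriers, NaPi-T was lower (49, 15.6, 56.4 and 224) and NaPi-III, which belongs to another family and was taken in by its name, was higher (8.62, 19.8, 14.4 and 27.1). NaPi-III reached the minimum mean only through uracil 2 h.

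Genes known from Malpighian tubules were among these. Uro, which encodes the urate oxidase of the tubules, stood at 82.6, 14.2, 67.2 and 210, 5.82-fold lower with uracil at 2 h (4.79 to 7.14). With Oatp58Dc and NaPi-T, 3 of 10 kept tubule markers were lower (30%, beside 0.884% of all genes kept) and 0 higher. The median was -0.12. The water channel genes Drip (109 and 109) and Prip (57.6 and 71.5) and the stellate cell chloride channel gene SecCl (38.2 and 34.3) were not lower by 2-fold. The 15 matched markers summed to 1224, 1138, 1117 and 1556 normalized counts, and none was at 0 in any library. Much of that sum came from Nha1 (352 and 361 at 2 h), Eglp4 (302 and 345) and Eglp2 (153 and 144). Markers under the minimum mean included Oatp58Db (4.31 and 1.18), CapaR (2.79 and 0.591) and ZnT35C (11.8 and 6.38), each lower with uracil at 2 h. Oatp58Db had 34 and 10 reads and CapaR 22 and 5. Of the others under it, tsh (9.64 and 8.62) was slightly lower and Best2 (3.93 and 4.49) slightly higher. Whether the amount of tubule tissue in each dissection has a part in the transporter values was not tested.

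Lipid uptake genes went both ways. Npc1b, which encodes the sterol transporter of the midgut, stood at 92.3, 331, 103 and 277, 3.59-fold higher with uracil at 2 h (3.31 to 3.9), and both uracil libraries were above both untreated ones. Npc2e, whose family binds sterols, was at 127, 330, 105 and 206, 2.6-fold higher (2.42 to 2.8). Its neighbour Npc2d was at 44, 16.3, 50.7 and 467, 2.7-fold lower (2.21 to 3.31). These adjacent genes on chromosome 3R, between 10053332 and 10056083, were thus on opposite sides at 2 h, and both were above their untreated library at 16 h. The acyl-CoA-binding protein gene Acbp3 was lower (45.5, 21.9, 17.6 and 66.2). The other 16 of the 20 kept members stayed within 2-fold, and the median was -0.08, or 0.10 with a minimum mean of 50.

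Metallothioneins, small proteins that bind copper and zinc, were all below 0 at 2 h. MtnA stood at 252, 121, 194 and 555 and MtnE at 55.7, 25.2, 51.3 and 38.7, both at least 2-fold lower. The other 3, MtnB (33 and 20 at 2 h), MtnC (93.1 and 57.2) and MtnD (52.5 and 28.4), were lower by less than 2-fold. In the whole metal list, 2 of 23 were lower (8.7%, beside 0.884% of all genes kept) and 0 higher. The ferritin genes Fer1HCH (2127 and 2083) and Fer2LCH (2235 and 2089) were close to equal.

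Detoxification genes had 4 of 84 lower over 3 lists (4.76%, beside 0.884% of all genes kept). Only 1 was higher (1.19%, beside 0.605%). The cytochrome P450 genes Cyp6a2 (89.3, 38.4, 150 and 149) and Cyp4e3 (26.9, 11.6, 11.8 and 15.7) were lower, as were the UDP-glycosyltransferase genes Ugt49B1 (50.6, 16.3, 58.5 and 33.7) and Ugt301D1 (54.9, 21, 25.6 and 70.2). Cyp6a17 was higher at 14.3, 30.6, 17 and 5.43. None of 24 glutathione S-transferase genes reached 2-fold.

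Some gene families outside the lists were named after their values had been seen. Ecdysteroid kinase-like genes had 6 of 13 kept members at least 2-fold lower (46.2%, beside 0.884% of all genes kept) and 0 higher (median -0.52). CG10560 was the lowest of them at 35, 10, 46.5 and 107, and CG11892 stood at 83.8, 39.6, 62.4 and 306. CG10562 (447 and 452) and CG10550 (141 and 214) in the same family were not lower. Of 5 alkaline phosphatase genes kept, Alp5 (112, 39, 103 and 404) and Alp4 (79.3, 28.8, 62.6 and 172) were lower, and Alp9 (3329 and 3094) was not. The aminoacylase genes CG6726 (75.7, 30.8, 106 and 288) and CG6733 (17.9, 6.62, 21.2 and 72) were lower and their neighbour CG17109 (383 and 407) was not. The peptidase gene CG31343 was lower as well, at 959, 382, 1010 and 3298.

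Immune genes were mostly near equality at 2 h. Of 18 peptidoglycan recognition and IMD pathway genes, 2 were lower (11.1%, beside 0.884% of all genes kept) and 0 higher. The median was 0.03. PGRP-SC1b, which encodes an amidase that cleaves peptidoglycan, stood at 75.7, 33, 18.6 and 130. The homeobox gene cad, known in the gut to restrain antimicrobial peptide genes, stood at 27.1, 10, 31 and 111, 2.7-fold lower at 2 h (2.09 to 3.52). The receptor gene PGRP-LC (69 and 76.9), the NF-kappaB gene Rel (473 and 488) and the negative regulator pirk (243 and 244) differed little. None of the 21 antimicrobial peptide genes matched reached the minimum mean. DptA (1.14 and 0.827 at 2 h) and DptB (0.507 and 0.591) were among them, and Drs is not analysed here. The lysozyme gene LysX was higher, at 38.3, 130, 13.1 and 39, while the other 5 lysozyme genes kept were below 0, with LysB at 2229 and 1635. Hml, which encodes a clotting protein of hemocytes, was lower at 17.1, 6.73, 9.75 and 2.66, and the other 4 hemocyte markers kept stayed within 2-fold. Of the hemocyte markers under the minimum mean, NimC1 (4.57 and 1.42 at 2 h), NimB4 (1.52 and 0.473) and PPO2 (10.9 and 6.85) were also lower with uracil. NimB4 had only 12 and 4 reads. Pxn (6.85 and 9.81) and He (0 and 0.236) were higher. The 18 matched markers summed to 292, 252, 270 and 310. Much of that sum came from crq (137, 138, 126 and 168) and srp (48.4, 41.6, 31.5 and 64.8), so it says little about the other markers. Whether hemocyte number has a part in the value of Hml was not tested.

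The genes kept from the Duox and reactive oxygen list, which also holds general antioxidant genes, did not differ by 2-fold at 2 h. These 24 genes ranged from -0.19 to 0.38 with a median of 0.01. The phospholipase C gene Plc21C, which acts upstream of calcium release, stood at 28.3 and 35.4, the p38 kinase gene p38a at 70 and 79.5, and the catalase gene Cat at 373 and 433. The maturation factor gene mol was below the minimum, at 2.28 untreated and 5.32 with uracil, from 18 and 45 reads. Duox itself and the list members p38c, Atf-2 and Prx5 are not analysed here, so the pathway is covered only in part. The lists of Hedgehog signalling (12 genes), endosomal sorting and autophagy (36), AMPK, TOR and Hippo (17) and pyrimidine metabolism (13) also had 0 genes past the threshold. In the last, su(r), the gene of the enzyme that starts pyrimidine breakdown, stood at 278 and 299, and pyd3, which acts at the last step of that pathway, at 12.8 and 7.21.

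Heat shock genes were at or above 0 at 2 h in all 12 members kept, with a median of 0.34. The small heat shock genes Hsp26 (16.5, 65.7, 18.8 and 14.1) and Hsp27 (13.9, 38.4, 4.61 and 11.1), whose products hold unfolded proteins in solution, were 3.98-fold (3.29 to 4.86) and 2.75-fold (2.21 to 3.45) higher. Hsp26 was highest in uracil 2 h and alike in the other 3 libraries. Hsp22 (10.4 and 19.7) and Hsp83 (980 and 1321) were higher by less than 2-fold, and Hsf, the gene of their common activator, was at 106 in both. Hsp26 and Hsp27 lie within one stretch of chromosome 3L, between 9376418 and 9385694.

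Mitotic genes were represented on the higher side. Of 22 kept genes of the cell cycle list 3 were at least 2-fold higher (13.6%, beside 0.605% of all genes kept) and 0 lower. The median was 0.10, or 0.46 with a minimum mean of 1. CycB, which encodes a mitotic cyclin, stood at 20.2, 83.3, 2.98 and 38.9, 4.13-fold higher at 2 h (3.47 to 4.94). The cyclin gene CycA was at 12.7, 43, 6.78 and 19.9 and the mitotic kinase gene polo at 6.09, 19.5, 3.45 and 9.65. Of the 3, polo reached the minimum mean only through uracil 2 h, so its place in the share is partly set by the minimum. Bub1 (46 and 46 at 2 h) and Cdk4 (17.9 and 17.4) were near equality. Several division genes under the minimum mean were higher with uracil at 2 h, among them the cyclin gene CycB3 (2.79, 11.7, 0.759 and 3.22) and the Cdc25 phosphatase genes stg (1.65, 8.15, 0.876 and 2.55) and twe (1.65, 7.09, 0.234 and 1.11). Of 15 DNA replication genes none reached 2-fold, the nearest being PCNA, the polymerase clamp gene, at 8.24 and 17.2.

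Of 43 matched oocyte, maternal and eggshell genes 8 reached the minimum mean at 2 h. At least 2-fold higher with uracil were 5 of these (62.5%, beside 0.605% of all genes kept). The genes osk, mtrm, wisp and yl reached it only through uracil 2 h, so that the median of the 8, 1.94, is partly set by the minimum, and it was 0.41 with none. The posterior determinant gene osk stood at 3.8, 23.3, 0.175 and 29.6, 6.12-fold higher at 2 h (4.15 to 9.31). The germline thioredoxin gene dhd was at 23.7, 114, 1.34 and 36.5, the meiotic Polo inhibitor gene mtrm at 3.68, 18.7, 0.117 and 4.1, and the poly(A) polymerase gene wisp at 7.74, 33.8, 0.701 and 11.9. The yolk receptor gene yl was at 5.58, 23.4, 0.234 and 32.7. For each of these 5 genes untreated 16 h was the lowest library and untreated 2 h lay between it and uracil 2 h. Pxt, which encodes a peroxidase needed in oogenesis and is on no list, had the same order at 4.82, 22.8, 0.234 and 10.8. So had BicC (8.5, 33, 0.409 and 16) and Marf1 (7.48, 24.2, 2.28 and 13.1), also known from oogenesis and added after their values were seen. Pxt, BicC and Marf1 likewise reached the minimum mean only through uracil 2 h.

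All 43 markers together summed to 187, 409, 110 and 295 normalized counts. The 13 eggshell genes among them went the other way at 2 h, with sums of 7.36, 1.65, 0.409 and 3.44, and 2 of the 13 were higher in uracil 2 h. They reached at most 1.9 normalized counts in untreated 2 h and 0.945 in uracil 2 h, and Cp7Fb and Vm32E were at 0 in all 4 libraries. Of the other 30 markers, 28 had a higher value in uracil 2 h than in untreated 2 h. CycA, CycB and polo, which dividing cells also use, had untreated 16 h lowest and uracil 2 h highest. Whether ovarian RNA in the dissected tissue has a part in these values was not tested.

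**Figure D4:**
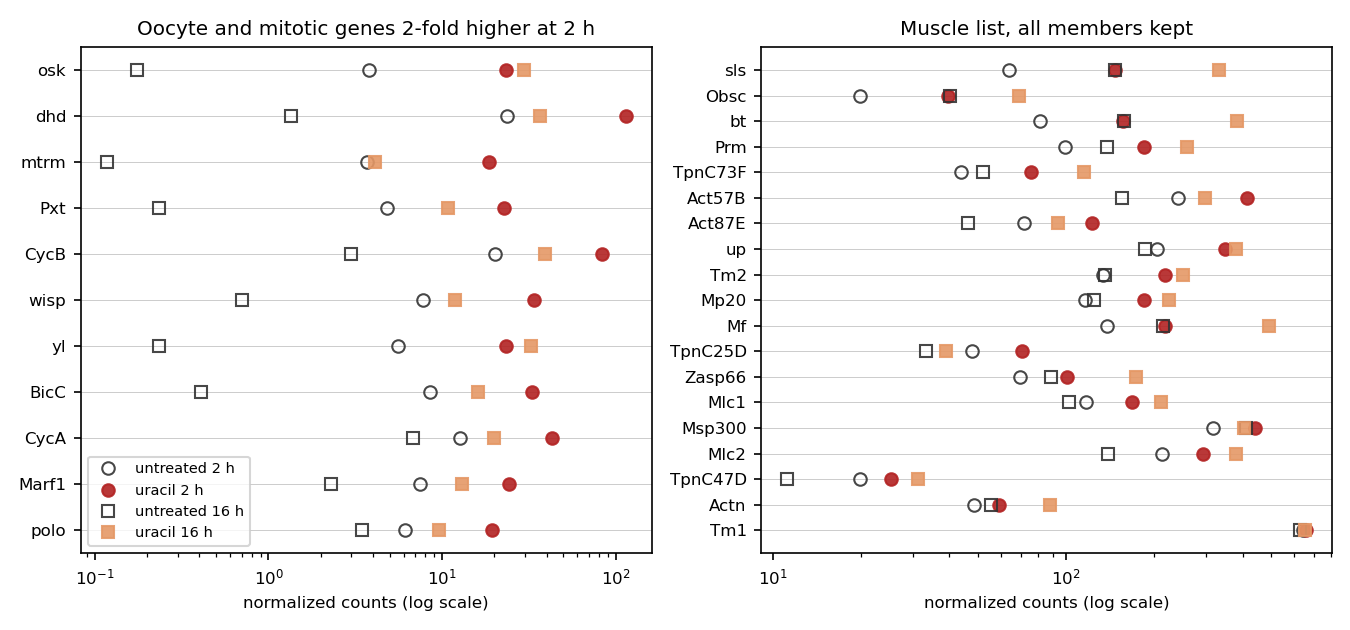
Normalized counts (log scale) in each of the 4 libraries for the oocyte and mitotic genes at least 2-fold higher at 2 h (left; BicC and Marf1 were added after their values were seen) and for the 19 kept muscle genes (right). In the left panel untreated 16 h is the lowest point of every gene, and in the right panel uracil 2 h lies at or above untreated 2 h in every gene, with Tm1 (640 and 658) nearest to equality.

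Muscle genes were above 0 at 2 h in all 19 kept members, mostly by less than 2-fold. The median was 0.67 and 1 gene, sls, passed the threshold. It encodes the titin-like sarcomere protein of the fly and stood at 63.9, 147, 147 and 333, 2.31-fold higher at 2 h (2.08 to 2.56). The sarcomere gene Obsc (19.9, 39.7, 40.1 and 69.2) and the tropomyosin gene Tm2 (134, 218, 136 and 251) had smaller differences, and Tm1 (640, 658, 627 and 652) was level in all libraries. For sls and Obsc, uracil 2 h was level with untreated 16 h, and untreated 2 h was the lowest library. Summed over the 22 matched markers, the muscle level was 2696, 3931, 2878 and 4878 normalized counts. The share of muscle in each dissection was not measured, and its part in these values was not tested.

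Among other list members on the higher side, the copper and iron cell marker CG13325 stood at 110, 261, 55.9 and 59, and it was the only one of 8 kept markers of those cells past the threshold. The chitinase gene Cht8 was at 17.1, 36.2, 30.3 and 94.2. On no list were 18 of the genes on the higher side and 25 of those on the lower side. Of these, chosen after their values were seen, CG14205 (139, 479, 149 and 403) had both uracil libraries above both untreated ones, whereas CG3348 (59.6, 195, 35.8 and 58.8) was high in uracil 2 h alone.

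The respiratory, citrate cycle, ribosomal and proteasome lists had 0 genes past the threshold at 2 h. The 61 respiratory chain and ATP synthase genes had a median of 0.16, with 57 above 0, and the 19 tricarboxylic acid cycle genes a median of 0.08, with 18 above 0. Ribosomal protein genes had a smaller median of 0.04, with 58 of 73 above 0, and proteasome genes one of 0.11, with 26 of 31 above 0. Of all 6448 genes kept, 3283 were above 0. Clock genes, which cycle over the day, also had 0 of 11 past the threshold, and the oscillator gene per stood highest among them, at 26 and 46.2.

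Some genes 2-fold apart were neighbours. Of the 56 on the lower side with a position in the annotation, 16 had another gene of the lower side within 20 kb, and on the higher side the number was 4 of 36. No share for genes at large was computed, so these counts do not show whether having such neighbours is particular to these genes. Those on the lower side were members of the same families, namely alpha-mannosidases, ecdysteroid kinase-like genes, aminoacylases, SLC5 carriers, Jonah proteases and the pair CG11911 and CG11912. That pair lies inside Plc21C (28.3 and 35.4 at 2 h) on the other strand, and the strand setting of the authors' counting is not given in the sources used here. In all, 11 of the genes 2-fold apart overlap another kept gene, including CG18585 within the span of Myo28B1 (877 and 854) and Alp5 with Calx (296 and 323). How reads in the shared bases were assigned is not known. The gene peng shared all its reads with a second ID and both are counted among the 39.

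The later libraries, which share none with the 2 h pair, showed where these genes stood at 16 h. By the same rule 396 of 6675 genes were at least 2-fold higher with uracil at 16 h (5.93%) and 61 lower (0.914%), or 6.85% in both directions. Of the 57 genes lower at 2 h, 47 were at least 2-fold higher at 16 h, which is 82.5% of the early set and 11.9% of the late one. Among the 56 of them that reached the minimum mean at 16 h, 0 were lower at both times. Hml did not reach it, and its log2 ratio at 16 h was -1.55. The uracil 16 h library was the highest of the 4 for 48 of the 57 (84.2%, beside 22% of all genes kept). By the choice of genes, uracil 2 h could not be the highest in this set. For 41 of the 57, the uracil 2 h value was at least 2-fold below both untreated libraries, where only the comparison with untreated 16 h is not fixed by the choice of genes. The share of all genes kept was not computed for this count.

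Of the 39 genes higher at 2 h, 18 were also higher at 16 h, 46.2% of the early set and 4.55% of the late one. The other genes of the 39 included 2 that were lower at 16 h, TotM and Cyp6a17. The uracil 2 h library was the highest of the 4 for 25 of the 39 (64.1%, beside 26.4% of all genes kept). At least 2-fold above both untreated libraries were 29, a count for which no share of all genes kept was computed. In both counts the place above untreated 2 h is fixed by the choice of genes. Only 30 of the 39 reached the minimum mean at 16 h.

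**Figure D5:**
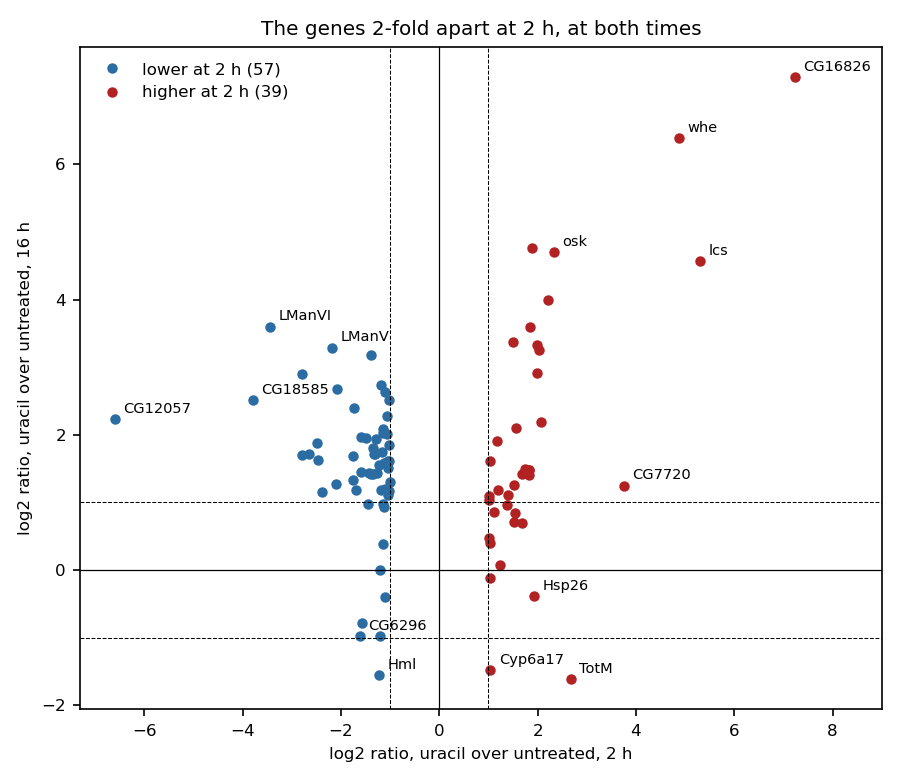
Log2 ratio of uracil to untreated, after adding 1 normalized count, at 2 h (horizontal) and 16 h (vertical) for the 96 genes at least 2-fold apart at 2 h; each point is a gene, and dashed lines mark 2-fold. The genes lower at 2 h lie mainly in the upper left, with 47 of 57 at least 2-fold higher at 16 h, and CG16826, whe and lcs stand at the upper right.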

How the data were processed

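The deposited table gives 1 signal per gene and library, labelled by the authors as normalized counts. Per the submitters' processing notes, cutadapt 1.0, TopHat2 2.0.5, Bowtie, HTSeq and edgeR were used, without role or settings. Neither genome build nor annotation nor strand setting is stated in the sources used here. All values of the deposited signal (100.0%, tolerance 0.01 reads) were whole multiples of what 1 read is worth in their library, so reads were recovered by division. The floor for a count of 0 is 3 reads, or 0.175 to 0.38 normalized counts.

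Of 13646 lines, 118 shared 57 gene IDs and were summed. Symbols were found by ID for 12888 of 13585. Of 64 gene lists, 98 named members were not matched and are not analysed here. IDs that share all reads with another ID (84) stay in the counts of all genes and are left out of lists and of the genes named. The genes named are the 12 lowest and 12 highest ratios and each list member 2-fold apart, and other genes, among them those given as near equal, were added after their values were seen. Members, lists and rules were chosen with earlier results of these data known. Counts and intervals were computed with Python 3.11.15, pandas 2.3.3 and scipy 1.17.1 and checked on simulated reads. With 1 library per group no test was made at 2 h alone. Alternatives are under the closing section. Coordinates are those of Ensembl release 115.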

Additional observations from a re-analysis of the deposited data

Results flagged for a closer look

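The difference between the uracil and the untreated library at 16 h was opposite in direction to that at 2 h, each by at least 2-fold, for 47 genes that were lower at 2 h and for 2 that were higher. With 1 library per group the difference between the times was not tested. The log2 ratios of uracil to untreated at 16 h for the genes named above are given here beside their lower values at 2 h. CG12057 stood at 2.23, CG33258 at 1.72 and the carboxypeptidase gene CG18585 at 2.51. Among mannosidases LManVI stood at 3.60, LManIII at 1.70 and LManV at 3.29. Among serine proteases the ratios were 2.68 for Jon66Ci, 1.94 for Jon65Aii, 1.62 for Jon65Ai, 2.63 for iotaTry, 2.90 for CG11912, 1.88 for CG11911 and 2.39 for CG17571. Carriers had ratios of 1.27 (Smvt), 1.62 (CG2187), 1.55 (kumpel), 1.33 (Oatp58Dc), 1.19 (CG7084), 1.59 (CG7882), 1.11 (CG15406) and 1.97 (NaPi-T). The others were Uro at 1.63, Npc2d at 3.18, Acbp3 at 1.85, cad at 1.80, Ugt301D1 at 1.42, PGRP-SC1b at 2.73 and MtnA at 1.51. On the other side, higher at 2 h and lower at 16 h, were TotM at -1.61 and Cyp6a17 at -1.48.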

How the results depend on the processing

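The minimum mean changed the counts most. With a minimum of 1 normalized count 134 genes were higher and 127 lower, with none 143 and 134, and with 50 only 16 and 21. A minimum of 1 also moved the counts at both times to 62 higher and 4 lower. Asking that the counting interval lie wholly beyond 2-fold left 33 lower. The other settings, namely pseudocounts of 0.5 and 5, rescaling to the same total, centring on the median, leaving out repeated IDs or IDs that share reads, and both untreated libraries as control, stayed within 1.5 times. They gave 29 to 43 higher and 40 to 59 lower. The 59 named genes kept their direction in the settings that could be computed for them, and with a pseudocount of 5 the log2 ratios of 8 shifted by more than the longer arm of their counting interval. The cell cycle median was 0.46 with a minimum of 1, the alpha-mannosidase median -0.32 with 50, and the SLC5 median -0.11 with 50. The sterol and lipid median changed sign, to 0.10 with 50, and the germline median was 0.41 with no minimum. These medians differ because each minimum keeps a different set of members, while no gene's ratio changes with the minimum. An edgeR 4.0.16 quasi-likelihood test on the recovered reads, chosen after seeing the data, asked instead for a difference shared by both times, since the 2 h pair leaves no residual. It called 3 of 6448 genes at a Benjamini-Hochberg adjusted p of 0.05, all higher, and 251 at an unadjusted p under 0.05. The 3 were CG16826, whe and lcs, which reached the minimum mean only through uracil 2 h. The test reuses the 2 h libraries by which these genes were picked out, so it gives them no separate support. With no replicates, its error comes from how the difference varied between the times. No paired analysis was possible because the 2 h pair holds 1 library per group and the labels give no replicate numbers; the shared fit has time as a term. No library could be left out. Planned promoter motif searches were not run.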
